A study of Rattus norvegicus with 9 samples.

Results

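The 9 genes Ly6c, Itgam, Evi2b, Fcnb, Plac8, Csf3r, S100a8, S100a9 and Mpo are expressed by neutrophils and monocytes, and their RNA was read in rat liver on a whole-transcriptome array. They were picked by name: a row of the expression table was taken where its annotation gave exactly 1 gene symbol and that symbol was one of the 9. This found 12 of the 68842 rows of the table, or 9 of its 22093 genes with a symbol of their own. Ly6c had 4 rows and each other gene had 1 row. Ly6c was represented by the row with the highest mean over the 9 arrays, and the other 3 Ly6c rows are given beside it.

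Liver RNA came from 3 groups of male Wistar rats. The T2D treated rats had type 2 diabetes and received 28 mg/kg BW gamma conglutin (Cγ, a lupin seed protein) with 20 mg/kg BW lupanine (a lupin alkaloid) by oral gavage on each of 7 days. The T2D control rats had the same diabetes without these compounds, and the healthy control rats had neither. The study's methods give saline as the vehicle of the compounds. They state that both control groups received this vehicle and that all animals were gavaged daily over the 7 days. They describe young animals in which diabetes was induced by a high-fat diet and a low dose of streptozotocin, an agent toxic to the pancreatic beta cells. The labels give no age. Diet and streptozotocin went together, so that in T2D against healthy they cannot be told apart. Neither can the lysis, since T2D livers were homogenized in Trizol and healthy livers in Buffer RLT. Each group had 3 arrays, pools 1 to 3 for T2D treated, pools 4 to 6 for T2D control and pools 7 to 9 for healthy control, and each pool mixed the RNA of 3 animals. The sample labels name the pools biological replicates and the design text also names them technical replicates, so p-values measure the spread between these pools, which may be technical in part.

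Neutrophils and monocytes are made in the bone marrow, circulate in the blood and enter the liver through its sinusoids, where they join the resident macrophages, the Kupffer cells. Neutrophils store antimicrobial proteins in granules, among them myeloperoxidase (Mpo), and hold the S100a8 and S100a9 proteins in their cytosol. Monocytes that have just entered a tissue in the mouse carry much Ly6c on their surface and lose it as they mature into macrophages. Both cell types carry the integrin alpha chain Itgam (CD11b), with which they adhere to the vessel wall. The myeloid transcription factors PU.1 and C/EBP drive many genes of these cells.

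The 250 bases before the start of transcription could be read for 7 of the 9 genes from RefSeq (assembly GRCr8), that is for all but Ly6c and S100a8. They are shown for 3 genes that were higher in T2D liver (Itgam, Evi2b, Fcnb) and for 1 that was not (Csf3r), so that the letters which PU.1 and C/EBP are known to recognise can be seen in both kinds. Capitals mark the PU.1 core GAGGAA and the C/EBP site TTGCNNAA, each searched on both strands, and each sequence runs 5′ to 3′ on the strand of its gene. Itgam lies on the plus strand at chr1:192089342-192089591, Evi2b on the minus strand at chr10:64972278-64972527, Fcnb on the minus strand at chr3:31800189-31800438 and Csf3r on the plus strand at chr5:143582970-143583219.
Itgam: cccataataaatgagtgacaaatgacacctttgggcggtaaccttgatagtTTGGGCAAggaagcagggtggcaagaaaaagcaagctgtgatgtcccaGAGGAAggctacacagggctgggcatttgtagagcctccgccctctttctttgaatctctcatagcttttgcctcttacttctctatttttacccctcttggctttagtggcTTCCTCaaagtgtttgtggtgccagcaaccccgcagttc
Evi2b: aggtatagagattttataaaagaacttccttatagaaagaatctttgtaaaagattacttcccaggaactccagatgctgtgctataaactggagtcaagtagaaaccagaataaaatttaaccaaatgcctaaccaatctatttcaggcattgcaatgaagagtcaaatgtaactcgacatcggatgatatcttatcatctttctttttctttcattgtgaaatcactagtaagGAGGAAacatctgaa
Fcnb: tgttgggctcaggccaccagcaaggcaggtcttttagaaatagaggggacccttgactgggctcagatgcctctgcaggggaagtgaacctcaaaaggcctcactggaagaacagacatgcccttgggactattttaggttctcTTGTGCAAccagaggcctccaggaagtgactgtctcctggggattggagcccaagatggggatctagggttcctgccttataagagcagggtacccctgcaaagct
Csf3r: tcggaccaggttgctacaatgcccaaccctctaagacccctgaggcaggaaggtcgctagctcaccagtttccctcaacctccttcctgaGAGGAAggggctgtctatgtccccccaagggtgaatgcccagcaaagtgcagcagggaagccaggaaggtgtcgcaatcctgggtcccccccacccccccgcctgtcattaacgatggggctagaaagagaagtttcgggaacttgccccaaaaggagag
Itgam held 2 PU.1 cores and 1 C/EBP match, Evi2b held 1 PU.1 core, Fcnb held 1 C/EBP match and Csf3r held 1 PU.1 core. S100a9 and Mpo held 1 PU.1 core each, and Plac8 held neither motif in its 250 bases. Among all 33469 rat promoters of the same length, 23.3% held the PU.1 core and 9.22% held the C/EBP site. A match describes letters only, and no binding was measured here.

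The values are log2 signals, on which a difference of 1 is a doubling. Level can be compared between samples for 1 row, and not between rows, because each row is read by other probes. A fit across all 68842 rows with limma, which borrows the spread of all rows, gave each difference its standard error (SE) and its p, adjusted by Benjamini and Hochberg over all rows. A gene is said to have risen or fallen where its adjusted p was under 0.05. Beside it stands the count at the study's threshold, that is more than 2-fold with p under 0.05 before adjustment. Hepatocyte markers were bright on every array (Alb 12.55 to 12.77), as a liver sample should show. Between 76.6% and 76.9% of rows lay under a level of 5 on each array, and no detection p-values were used here. The array's 23 background probe sets averaged 2.85 to 2.94 in T2D treated, 2.80 to 2.85 in T2D control and 3.35 to 3.72 in healthy control, so that background was higher on the healthy arrays. Bulk liver cannot tell fewer cells of a type from less RNA per cell.

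In T2D control against healthy control, 4 of the 9 genes rose, Itgam, Evi2b, Ly6c and Fcnb, and none fell. The background is wide, as 35% of all rows were called, and 12.4% of all rows were higher in T2D control. Among the 8945 rows with 1 symbol and a mean of at least 5, 30.9% were higher. At the study's threshold 3 of the 9 were called (Itgam, Evi2b and Ly6c), against 3.35% of all rows in that direction. The pools did not overlap for these 4 genes, with T2D control above healthy, against 15% of all rows. The median difference over the 9 genes was 0.21, against -0.12 over all rows and 0.028 over the brighter rows with 1 symbol.

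In T2D treated against T2D control, none of the 9 genes passed the adjusted p by limma. Of all rows 0.0668% were called, 2 rows or 0.00291% higher and 44 rows or 0.0639% lower. At an unadjusted p under 0.05, 5 of the 9 were higher in T2D treated (Ly6c, Plac8, Evi2b, Fcnb and Itgam) and 0 were lower, against 1.92% of all rows higher. At the study's threshold, with folds taken between group means, 1 of the 9 was called, Ly6c, against 0.0436% of all rows higher. The study's listing of the genes most regulated after treatment holds both Ly6c and Evi2b, as downregulated. Its signs run opposite to the values given here, as they would for T2D control over T2D treated. The T2D treated pools lay wholly above the T2D control pools for 4 genes (Fcnb, Plac8, Evi2b and Itgam), against 5.27% of all rows. The nearest pools almost touched for Evi2b (6.931 against 6.925) and for Itgam (6.738 against 6.717). The median difference over the 9 genes was 0.39, against -0.0047 over all rows and 0.013 over the brighter rows with 1 symbol.

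In T2D treated against healthy control, 5 of the 9 genes rose (Itgam, Evi2b, Ly6c, Fcnb and Plac8) and none fell, where 34.3% of all rows were called and 11.1% were higher. Among rows with 1 symbol and a mean of at least 5, which include these 5, 30.5% were higher. At the study's threshold 4 were called, all but Plac8 of these 5, against 2.81% of all rows higher. The pools of the 5 genes did not overlap, against 13.9% of rows with T2D treated wholly above. The median difference over the 9 genes was 0.90, against -0.13 over all rows and 0.039 over the brighter rows with 1 symbol. The 3 comparisons share their groups, so their values stand side by side and are not independent of each other.

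**Figure D1:**
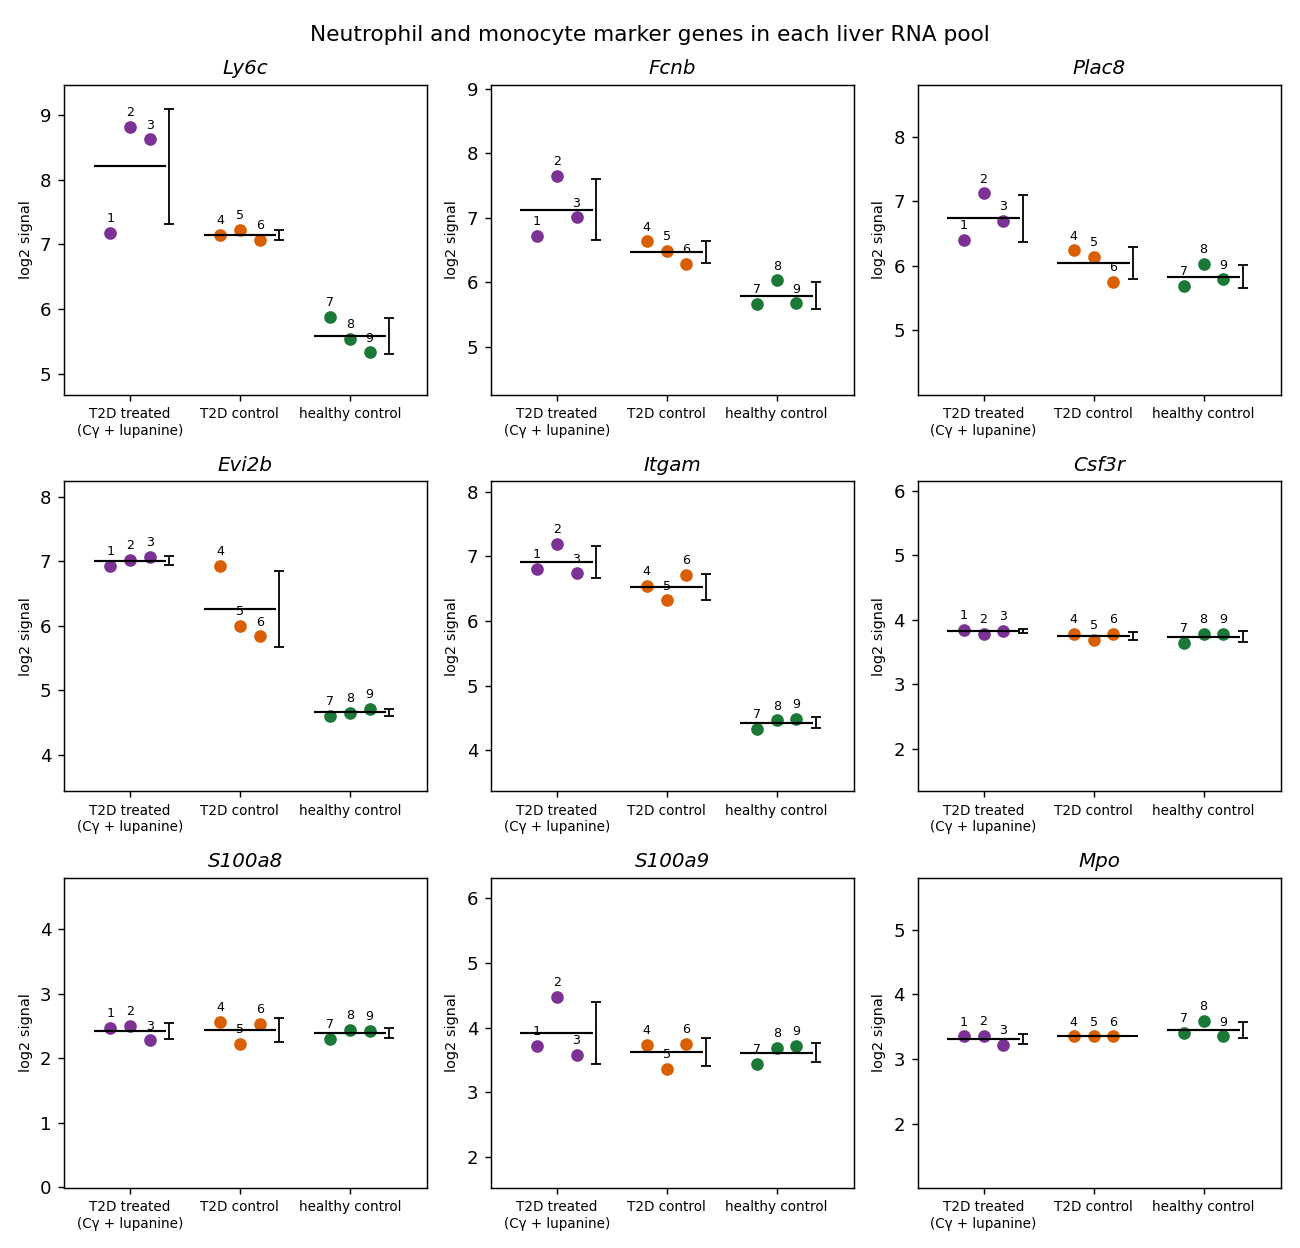
Log2 signal (vertical axis, every panel spanning the same number of log2 units) of each of the 9 genes in each RNA pool, by group. Points are pools with their numbers, horizontal lines are group means and the bars beside them are ± 1 SD over 3 pools; Itgam, Evi2b, Ly6c and Fcnb are lowest in the 3 healthy pools, and Csf3r, S100a8, S100a9 and Mpo stay under a level of 5 in all 9 pools.

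**Figure D2:**
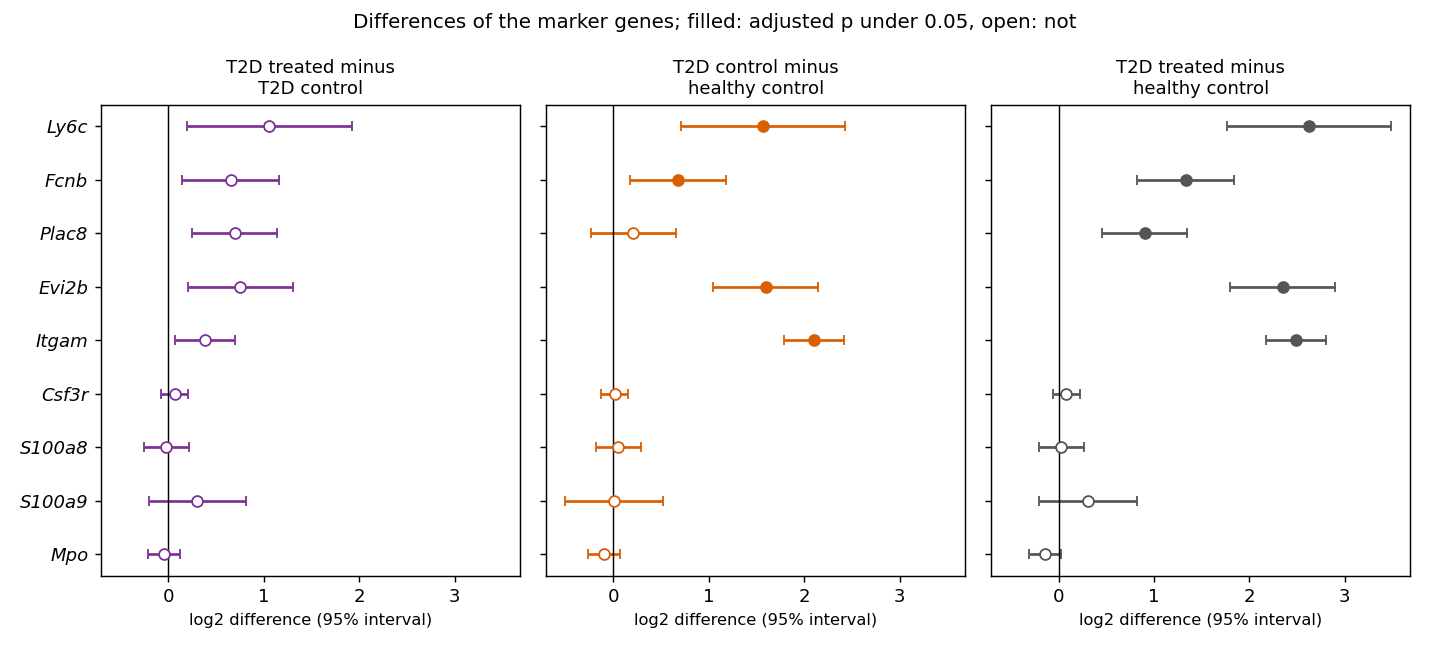
Log2 difference of each gene in the 3 comparisons, with the 95% interval from limma. Filled points have an adjusted p under 0.05 and open points do not; 0 points are filled for T2D treated minus T2D control, 4 for T2D control minus healthy control and 5 for T2D treated minus healthy control.

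Among the surface antigens, Ly6c codes for a small lipid-anchored protein of monocytes and other leukocytes. Its brightest row read 7.18, 8.81 and 8.63 in T2D treated pools 1 to 3, 7.15, 7.22 and 7.07 in T2D control pools 4 to 6, and 5.88, 5.54 and 5.33 in healthy pools 7 to 9. T2D treated pools 2 and 3 stood above all others, while pool 1 lay within the range of the T2D control pools. In T2D control Ly6c was 2.96-fold higher than in healthy control (1.57 ± 0.38 on the log2 scale, SE, n = 3 pools each, limma adjusted p = 0.0142), and in T2D treated it was 6.18-fold higher than in healthy control (2.63 ± 0.38, adjusted p = 0.00162). T2D treated exceeded T2D control by 1.06 ± 0.38, or 2.09-fold, with an unadjusted p of 0.0217 and an adjusted p of 0.775.

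That difference turned on which T2D treated pool was counted. Without pool 1 it was 1.57, with an adjusted p of 0.0665, without pool 2 it was 0.76 and without pool 3 it was 0.85. The SD over the 3 T2D treated pools was 0.90, against 0.08 over the T2D control pools and 0.28 over the healthy pools. With Tukey's biweight, an average that gives a distant value little weight, T2D treated stood 2.97-fold above T2D control, a value with no test. The study lists Ly6c 3 times, with folds of size 2.97, 2.87 and 2.84. These are the sizes of the biweight folds of Ly6c rows 1, 3 and 2.

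The other 3 Ly6c rows had the same order of pools within T2D treated. They carry the same gene ID as the first, and the row names place the 4 rows at different sites of the genome, so the same Ly6c RNA or that of near-identical copies may be read by several. Row 2 read 7.04, 8.77 and 8.61 in T2D treated, 7.16, 7.19 and 6.97 in T2D control and 5.73, 5.53 and 5.03 in healthy control. Row 3 read 6.95, 8.43 and 8.18 in T2D treated, 6.78, 6.78 and 6.74 in T2D control and 5.39, 4.96 and 4.65 in healthy control. Row 4 read 5.40, 6.74 and 6.16 in T2D treated, 5.23, 5.23 and 5.23 in T2D control and 4.74, 4.49 and 3.98 in healthy control. In each row pool 2 was highest and pool 1 lowest within T2D treated. T2D treated differed from T2D control by 1.03, 1.09 and 0.87 in rows 2 to 4, with adjusted p of 0.894, 0.663 and 0.778. Rows 1 to 3 passed the study's threshold there and row 4 did not. In T2D control against healthy control rows 2 and 3 were higher by 1.68 (adjusted p = 0.0155) and 1.77 (adjusted p = 0.00639), while row 4 missed the threshold (0.82, adjusted p = 0.0706). The 4 rows are not 4 independent measurements of Ly6c.

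**Figure D3:**
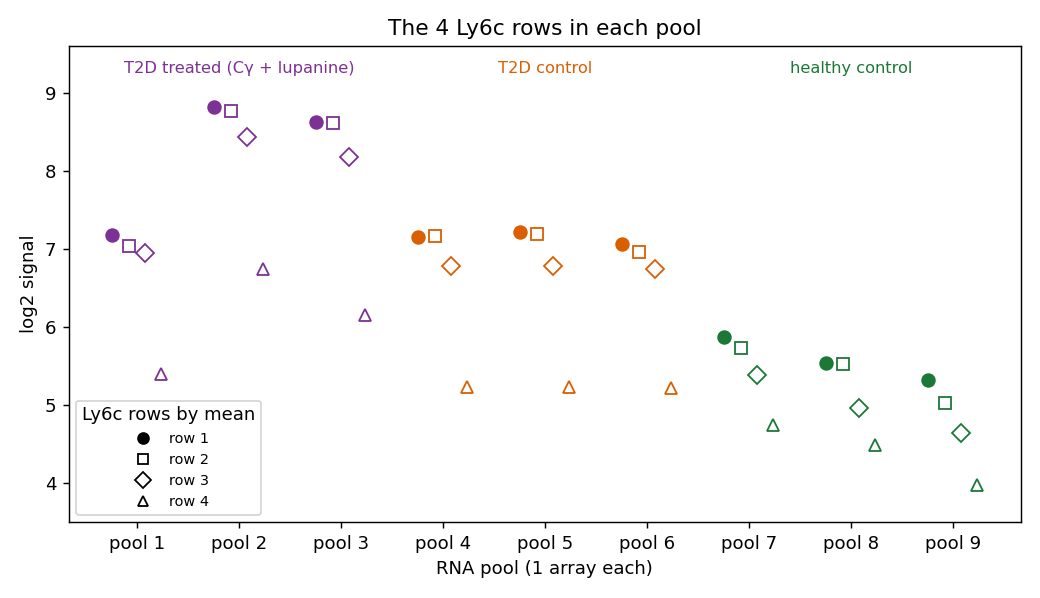
Log2 signal of the 4 Ly6c rows in each pool, with the row that represents the gene filled. In all 4 rows T2D treated pools 2 and 3 lie above pool 1, and the healthy pools lie lowest.

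Itgam, the alpha chain of a leukocyte integrin that binds complement fragments and the vessel wall, showed the largest difference of the 9 genes between T2D control and healthy control. It read 6.81, 7.19 and 6.74 in T2D treated, 6.55, 6.32 and 6.72 in T2D control and 4.33, 4.46 and 4.49 in healthy control. Every T2D pool was above every healthy pool. Itgam rose 4.29-fold in T2D control over healthy control (2.10 ± 0.14, SE, adjusted p = 5.66e-05) and 5.60-fold in T2D treated over healthy control (2.49 ± 0.14, adjusted p = 3.9e-05). The T2D treated pools lay just above the T2D control pools, by 0.39 ± 0.14 on average (adjusted p = 0.775), and without T2D treated pool 2 by 0.25 (adjusted p = 1).

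Evi2b codes for a membrane protein of leukocytes that takes part in granulocyte differentiation. It read 6.93, 7.02 and 7.06 in T2D treated, 6.93, 6.00 and 5.83 in T2D control and 4.61, 4.65 and 4.71 in healthy control. T2D control pool 4 stood at the level of the T2D treated pools, above the other T2D control pools. Evi2b rose 3.02-fold in T2D control over healthy control (1.60 ± 0.24, adjusted p = 0.002) and 5.10-fold in T2D treated over healthy control (2.35 ± 0.24, adjusted p = 0.000366). T2D treated exceeded T2D control by 0.75 ± 0.24 (adjusted p = 0.656), and without pool 4 by 1.09 (adjusted p = 0.0077). Between group means this was 1.69-fold. With Tukey's biweight T2D treated stood 2.14-fold above T2D control, the size that the study lists for Evi2b.

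Fcnb codes for ficolin B, a lectin that myeloid cells secrete and that starts the lectin pathway of complement on microbial sugars. It read 6.72, 7.64 and 7.00 in T2D treated, 6.63, 6.49 and 6.28 in T2D control and 5.67, 6.03 and 5.67 in healthy control. The 3 groups did not overlap. Fcnb rose 1.60-fold in T2D control over healthy control (0.68 ± 0.22, adjusted p = 0.0441) and 2.52-fold in T2D treated over healthy control (1.33 ± 0.22, adjusted p = 0.00307). The first of these calls lay close to the threshold and was lost when any one of the T2D control or healthy pools, or T2D treated pool 3, was left out (adjusted p 0.051 to 0.126). T2D treated exceeded T2D control by 0.66 ± 0.22 (adjusted p = 0.725), and without T2D treated pool 2 by 0.40 (adjusted p = 1).

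Plac8, a small cysteine-rich protein abundant in mouse monocytes and neutrophils, passed the test in T2D treated over healthy control and not in T2D control over healthy control. It read 6.40, 7.12 and 6.70 in T2D treated, 6.24, 6.13 and 5.76 in T2D control and 5.68, 6.03 and 5.79 in healthy control. T2D control and healthy control overlapped, with a difference of 0.21 ± 0.20 (95% interval -0.24 to 0.65, adjusted p = 0.410). T2D treated was 1.87-fold above healthy control (0.90 ± 0.20, adjusted p = 0.00932). Its difference of 0.70 ± 0.20 from T2D control had the smallest p of the 9 genes in that comparison by limma (unadjusted p = 0.00679, adjusted p = 0.510).

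The other 4 genes, which are best known from neutrophils, were dim in all pools. Csf3r, the receptor for the growth factor that drives neutrophil output, read 3.84, 3.78 and 3.83 in T2D treated, 3.78, 3.68 and 3.78 in T2D control and 3.64, 3.78 and 3.78 in healthy control. The groups overlapped, 4 of its 9 arrays hold 1 identical value, and the interval of T2D treated minus T2D control ran between -0.07 and 0.21. S100a8, a subunit of calprotectin, read 2.47, 2.50 and 2.27 in T2D treated, 2.56, 2.22 and 2.53 in T2D control and 2.30, 2.43 and 2.42 in healthy control. Its pools were mixed among the groups, with a T2D treated minus T2D control interval of -0.26 to 0.22 and a T2D control minus healthy control interval of -0.19 to 0.29. All 9 S100a8 levels lie below the mean of the background probe sets of their own arrays.

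S100a9, the partner of S100a8, read 3.71, 4.47 and 3.58 in T2D treated, 3.73, 3.36 and 3.75 in T2D control and 3.44, 3.68 and 3.71 in healthy control. T2D treated pool 2 alone stood above the rest, and the interval of T2D treated minus T2D control ran between -0.21 and 0.82. Mpo, the peroxidase of primary granules, read 3.35, 3.36 and 3.22 in T2D treated, 3.35, 3.35 and 3.35 in T2D control and 3.41, 3.59 and 3.35 in healthy control. The 3 T2D control values are identical, as is 1 value on 5 of the 9 arrays, so the spread of Mpo comes from the other groups. Its T2D treated minus T2D control interval was -0.21 to 0.13, and its T2D control minus healthy control interval was -0.27 to 0.07. None of these 4 genes passed the test in any comparison as deposited (adjusted p 0.160 to 1).

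T2D treated pool 2 was the highest pool of its group for 7 of the 9 genes. It was also highest in the average of 14 of 16 lists of related genes and cell type markers, and in the list of red cell and platelet markers it was lowest (4.55, against 4.71 and 4.72 in the other T2D treated pools). The other groups had such a pool as well, pool 4 being highest of the T2D control pools in 12 of the 16 lists and pool 8 highest of the healthy pools in 11 of them.

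Lists of other genes of these cells were counted in T2D control against healthy control, where 12.4% of all rows, and among the brighter rows with 1 symbol 30.9%, were higher, while 24.9% of the brighter rows were lower. All 5 measured subunits of the NADPH oxidase, the enzyme with which phagocytes make superoxide, rose. They included Cybb, the catalytic subunit (2.91 ± 0.15, SE, adjusted p = 3.02e-05), the small GTPase Rac2 (2.21) and the cytosolic subunit Ncf1 (2.15). The list median was 2.15, against -0.12 over all rows and 0.028 over the brighter rows with 1 symbol. Of 12 integrins, selectins and their ligands, Itgam among them, 9 rose and 0 fell. Beside Itgam, those with the smallest p were Itgb2, the beta chain that pairs with Itgam (2.21, adjusted p = 2.41e-05), the alpha chain Itga4 (2.11) and Itgal (1.55), each on the log2 scale.

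Of 13 receptors for chemoattractants and growth factors, 7 rose in T2D control and 0 fell. Csf1r, the receptor for the macrophage growth factor, rose by 1.60, the complement fragment receptor C5ar1 by 1.73, the shared beta chain Csf2rb by 1.59 and the chemokine receptor Cxcr4 by 1.70. Csf3r and the neutrophil chemokine receptors Cxcr1 and Cxcr2 did not pass (0.01, 0.18 and 0.16, adjusted p 0.231 to 0.864). Of 18 monocyte and tissue macrophage genes, 11 rose and 0 fell (2 fell with quantile normalization), and 15 lay above 0. The rises were led by Gpnmb (4.80), Lgals3 (2.53) and Cd68 (2.23), all 3 known from lipid-laden macrophages. Clec4f, a lectin of Kupffer cells, and Vsig4 lay lower (-0.24 and -0.40) and did not pass by limma (adjusted p = 0.139 each). Other tissue macrophage genes of this list went the other way. Adgre1 rose by 0.98, Cd163 by 0.86 and Cd5l by 0.82 (adjusted p 0.00283 to 0.0241 by limma). Marco and Timd4 lay higher (0.47 and 0.20) and did not pass.

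Of the 15 measured neutrophil granule genes, Mpo among them, 3 rose and 2 fell (1 fell with median centring). The list median was -0.09 (0.05 with quantile normalization and 0.03 with median centring). Lcn2, which binds bacterial iron carriers and is also made by hepatocytes, rose by 3.18 ± 0.20 (adjusted p = 5.16e-05), the collagenase Mmp8 by 0.62 and the lysozyme Lyz2, also a macrophage gene, by 0.58. The protease Prtn3 fell by 0.60 and the defensin Np4 by 0.30. Prtn3 averaged 3.24 in T2D control and 3.85 in healthy control, near the level of the background probe sets. That background was higher on the healthy arrays. Of the 15, only 3 had a mean level of at least 5. Defining granule genes were dim in all pools, with Elane at 4.17, 4.18 and 4.17 in T2D treated, 4.11, 4.17 and 4.17 in T2D control and 4.43, 4.47 and 4.16 in healthy control. Ltf and Camp stayed between 2.45 and 3.24.

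Of the 8 ficolins and lectin pathway genes, Fcnb included, 2 rose and 2 fell in T2D control (1 rose and 4 fell with quantile normalization). Fcna, the ficolin of liver macrophages, fell by 1.13 ± 0.10 (adjusted p = 0.000197), opposite to Fcnb. It read 6.04, 6.01 and 6.13 in T2D treated, 6.18, 5.93 and 5.90 in T2D control and 7.02, 7.32 and 7.08 in healthy control. Mbl1, a mannose-binding lectin, fell by 0.82, and its protease partner Masp1 rose by 0.55. Of the 21 measured members of the Ly6 family, 4 rose (Ly6c, Ly6e by 1.14, Lynx1 by 0.70 and Plaur by 0.40) and 8 fell, and with quantile normalization or median centring 5 rose and 5 fell. Only 5 of the 21 had a mean level of at least 5, and those that fell all lay under it. Background was higher on the healthy arrays. Of 15 S100 proteins and calprotectin receptors, 5 rose and 2 fell, with S100a10 (1.65) and S100a11 (1.13) among those that rose.

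In T2D treated against T2D control none of the genes of the 16 lists passed the adjusted p. The smallest unadjusted p of these genes belonged to Cxcl12, a chemokine that holds myeloid cells in the marrow. It read 6.84, 7.01 and 6.84 in T2D treated, 6.57, 6.22 and 6.41 in T2D control and 7.25, 7.05 and 7.13 in healthy control (T2D treated minus T2D control 0.49 ± 0.10, adjusted p = 0.216). The T2D treated pools lay between both other groups. The cytokine Tnf read 4.80, 5.29 and 4.56 in T2D treated, 4.34, 4.06 and 4.09 in T2D control and 3.76, 3.71 and 3.88 in healthy control (0.72 ± 0.17, adjusted p = 0.332). Itgal differed by 0.46 ± 0.12 (adjusted p = 0.399), and Ccr2, the receptor by which monocytes leave the marrow, by 0.59 ± 0.24 (adjusted p = 0.937). The transcription factor Cebpa differed by 0.48 ± 0.14 (adjusted p = 0.531 by limma). Its mean was 7.82 in T2D treated, 7.34 in T2D control and 7.96 in healthy control. In the other direction, Clec4f, a lectin of Kupffer cells, differed by -0.33 ± 0.12 (adjusted p = 0.757) and the hepatocyte enzyme Tat by -0.70 ± 0.27 (adjusted p = 0.864). Clec4f was unlike most of its list. Of the 18 monocyte and tissue macrophage genes 16 lay above 0, among them Marco (0.32), Cd163 (0.22) and Cd5l (0.18). The list medians between T2D treated and T2D control lay between -0.06 and 0.21.

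**Figure D4:**
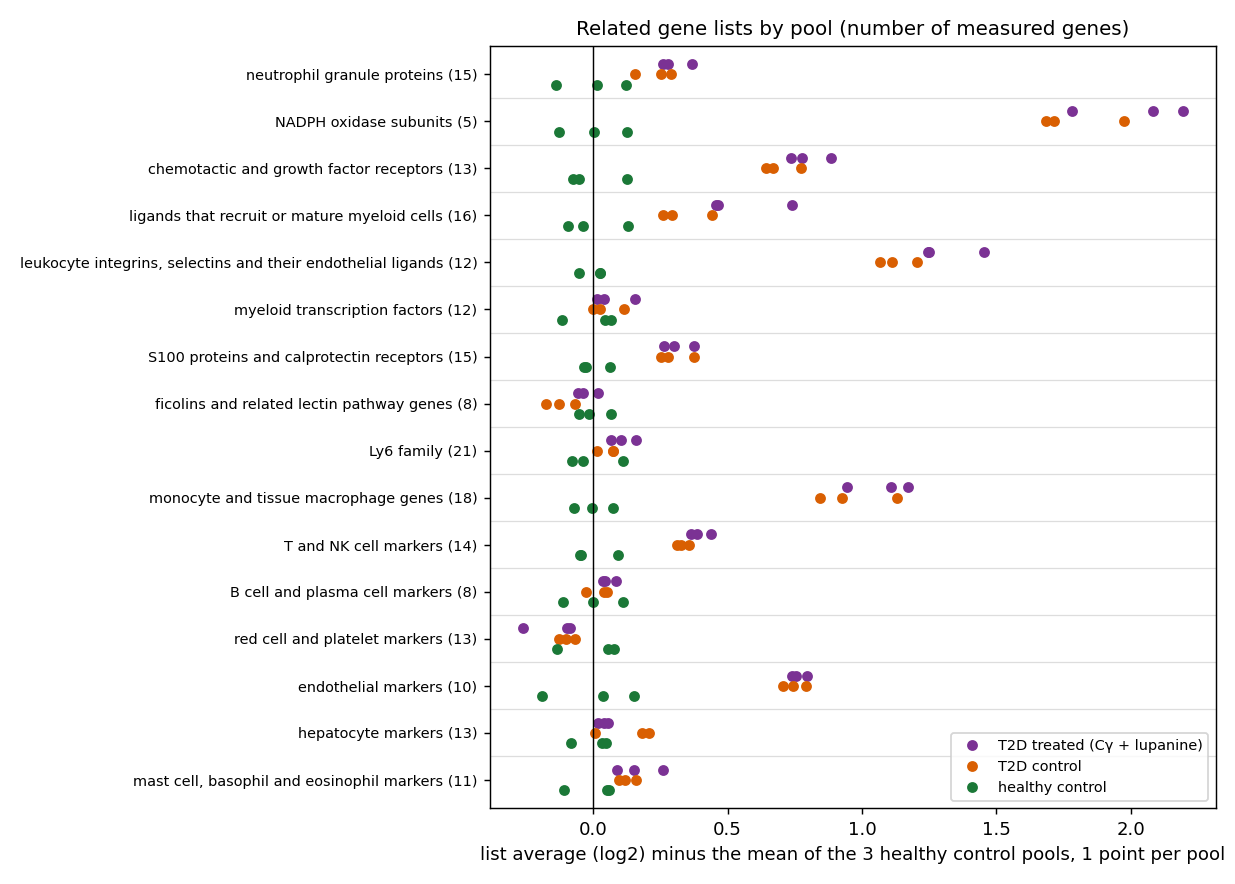
Average log2 level of each list of related genes or cell type markers in each pool (1 point per pool, by group), as the difference from the mean of the 3 healthy pools. NADPH oxidase subunits stand 1.78 to 2.19 above it in T2D treated and 1.68 to 1.98 in T2D control; the average of the granule list includes Lcn2 (3.18), while the median of that list was -0.09.

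Markers of other cells were counted in T2D control against healthy control. Of 10 endothelial markers 9 rose and 0 fell (7 rose with quantile normalization), and their average level was 7.05 to 7.10 in T2D treated, 7.01 to 7.10 in T2D control and 6.12 to 6.46 in healthy control. Of 14 T and NK cell markers 3 rose (Cd8b, Cd4 and Cd8a) and 1 fell (Cd5), where 5 rose with quantile normalization or with median centring. Of the 14, 8 lay above 0. Cd3e, Cd3d and Cd3g, each with a mean level under 5, did not pass (-0.01, -0.10 and -0.11). Of 8 B cell and plasma cell markers 2 rose (1 with quantile normalization), and of 13 hepatocyte markers 4 rose and 2 fell (2 and 2 with quantile normalization). The shares of the last 3 lists that rose lay no higher than about the 30.9% of the brighter rows. Of 13 red cell and platelet markers 1 rose, Hba-a1, which was not called with quantile normalization, and 3 fell. Hbb-b1, a beta globin chain, read 8.97, 8.76 and 8.94 in T2D treated, 8.79, 9.23 and 9.12 in T2D control and 9.63, 10.12 and 10.29 in healthy control, so the globins did not move one way. Blood left in the liver, and other cell types, were not tested as a part of the marker genes' differences.

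The genes whose pattern over the 9 arrays was most like that of Ly6c were sought among 8401 genes with a mean level of at least 5, by the root mean square difference of log2 values after each gene's own mean was taken off. Acod1, which makes itaconate in activated macrophages, was closest at 0.16, followed by the monocyte chemokine Ccl2 (0.41), the interferon-induced GTPases Gbp2 (0.42) and Gbp5 (0.43), and the phagosomal metal transporter Slc11a1 (0.44). Acod1 read 5.56, 6.81 and 6.82 in T2D treated, 5.13, 5.09 and 5.14 in T2D control and 3.69, 3.63 and 3.39 in healthy control. As with Ly6c, pools 2 and 3 stood above pool 1 within T2D treated.

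For Itgam the closest were Pkm-ps20 (0.14), Rac2 and Fxyd5 (0.17 each), the actin-bundling protein of leukocytes Lcp1 (0.19) and Gbp5 (0.20). Rac2 read 7.27, 7.78 and 7.53 in T2D treated, 7.31, 7.27 and 7.31 in T2D control and 5.23, 5.06 and 4.98 in healthy control. For S100a9 the closest were Il33 (0.16), the histone gene Hist1h2ah (0.17), Gsap (0.17), Snrpa (0.18) and H2ax (0.18). All 5 were highest in T2D treated pool 2, like S100a9. These likenesses are descriptions over 9 arrays of 3 groups and include the differences between groups.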

How the data were processed

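Liver RNA pools were hybridized to Affymetrix Clariom D rat arrays, 1 pool per array. The authors normalized the scans by RMA in the Transcriptome Analysis Console 4.0.2 and deposited 1 log2 signal per gene-level row, which entered the tests without further normalization or filter. The genome build of the array's rows is not given in the sources used here. Of 70580 entries, 1738 control probe sets were left out, leaving 68842 rows. Symbols came from the platform annotation, with 1 updated through its gene ID.

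Groups were compared in R 4.3.3 by limma 3.58.1, a linear model of all 9 arrays with empirical Bayes variances and 6 residual degrees of freedom, with p-values adjusted by Benjamini and Hochberg over all rows. Promoter letters were searched with Python 3.11.15. The 9 genes and the 16 lists (221 symbols, 204 of them measured, some in more than 1 list) were chosen with earlier results of these data known, so counts over them are descriptions. The genes named are these 9, the 5 most like Ly6c, Itgam and S100a9 each, and of each list up to 4 with the smallest p in the comparison described. Np4, Cxcr1, Cxcr2, Elane, Ltf, Camp, Alb, Csf3, Vsig4, Gfi1 and Cebpe were added after their values were seen. So were Adgre1, Cd163, Cd5l, Marco, Timd4, Cd3e, Cd3d and Cd3g. Alternatives covered the groups fitted, normalization, a filter on dim rows, the variance model, array weights, the rows tested, the row of a gene, the call rule and leaving out each pool. The number of arrays limits the precision. In 7174 rows 1 identical value stands in all 3 pools of a group.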

Additional observations from a re-analysis of the deposited data

How the results depend on the processing

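No paired analysis was possible because the groups share no pool numbers. In T2D treated against T2D control the count of genes called, 0 of 9, became 1 at the study's threshold with folds between group means (Ly6c). With biweight folds Evi2b exceeded 2-fold as well. The count ran between 0 and 1 as each pool was left out, the 1 being Evi2b without T2D control pool 4. In T2D control against healthy control 3 or 4 of the 9 were called under every alternative. Fcnb was lost with quantile normalization (0.57, adjusted p = 0.0662) and with array weights (0.73, adjusted p = 0.0578), besides the pools named above. In T2D treated against healthy control 4 to 6 were called, the sixth being Csf3r with median centring (0.21, adjusted p = 0.0363), which raises all differences from healthy control by about the 0.12 to 0.13 that all rows lie below 0. No gene changed direction where it was called. Rows without identical values in a group and the biweight average were added after the data were seen, and the first changed no count of genes called. Calls over all rows in T2D treated against T2D control, 46, moved to 6 with only those 2 groups fitted, to 30 with median centring, to 1 among rows with a mean of at least 5, to 606 with array weights, to 3 among rows with 1 symbol, to 98 among rows without identical values, and between 0 and 170 as each pool was left out. In T2D control against healthy control the 24083 calls became 9484 among rows with a mean of at least 5, 10563 among rows with 1 symbol and 15654 without T2D control pool 5. In T2D treated against healthy control the 23602 calls became 8677, 10644, and 15227 or 14782 without T2D treated pool 2 or 3. Fewer rows were tested where rows were filtered, and the cause of the other moves was not tested. Csf3r, S100a8, S100a9 and Mpo lay near the level of the background probe sets, so a difference in their RNA may not be measurable here.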

Other observations

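Of 16 ligands that recruit or mature myeloid cells, 3 rose and 1 fell in T2D control against healthy control, and 6 rose and 0 fell in T2D treated against healthy control. With median centring 5 and 8 rose, and with quantile normalization 4 and 7, while 12.4% and 11.1% of all rows were higher in these comparisons, and 30.9% and 30.5% of the brighter rows with 1 symbol. Ccl3, a chemokine of macrophages, rose by 2.47 in T2D control (adjusted p = 0.000117), Ccl2 by 1.37 and the macrophage growth factor Csf1 by 0.66, while Cxcl12 fell by 0.74. Csf3, which codes for the ligand of Csf3r, did not pass (-0.17, adjusted p = 0.243). Of 12 myeloid transcription factors, 4 rose and 3 fell in T2D control (3 and 2 with quantile normalization, 4 and 2 with median centring). These shares lay near those of the brighter rows with 1 symbol, of which 30.9% were higher and 24.9% lower. Spi1, which codes for PU.1, rose by 0.61 (adjusted p = 0.00255), Irf8 by 0.43 and Runx1 by 0.32. Cebpa, which is also a hepatocyte factor, fell by 0.61 (adjusted p = 0.0106). Gfi1 and Cebpe, both with a mean level under 5, fell by 0.45 and 0.26. Of 11 mast cell, basophil and eosinophil markers 3 rose and 1 fell, with Hdc, the histamine-making enzyme, higher by 1.30.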
